A study of Drosophila melanogaster with 9 samples.

Results

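The genes described are 10 regulators and executioners of apoptosis in Drosophila melanogaster: rpr, hid and skl, Dronc, Dark, Drice, Dcp-1, Diap1, Diap2 and Xrp1. They were chosen by symbol, through the FlyBase identifier of each row, and all 10 were found once among the 17559 genes of the count files. The cells were S2R+, an established line of embryonic origin with haemocyte-like properties, grown as 3 groups of 3 libraries that all drove a transgene through Gal4-UAS with an actin promoter. The control group expressed a nuclear green fluorescent protein (GFP), the second group Ultrabithorax, a Hox transcription factor, in its wild-type form (Ubx-WT), and the third a form changed in the DNA-binding homeodomain by N51A (Ubx-N51A). The labels name both a myc tag and a GFP tag for the Ubx proteins. Each group's files are named with a different term that refers to sorting, so if cells were sorted, sorting and transgene cannot be told apart. Of 4 replicates made per group, 3 were kept after a principal component analysis, per the labels. The replicates are described as independent, but not whether each came from its own transfection.

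Apoptosis in flies is held back by Diap1, an inhibitor of apoptosis protein (IAP) and ubiquitin ligase that binds caspases. The proteins Reaper (rpr), Hid (hid), Grim (grim) and Sickle (skl) bind Diap1 and release the caspases. The initiator caspase Dronc is then activated on a complex built by Dark, the fly relative of Apaf, and cleaves the effector caspases Drice and Dcp-1. Hox proteins are known to act on this step during fly development: Deformed activates rpr in the head, and Abdominal-A acts upstream of the antagonist genes in dying neuroblasts. Diap2 is a related IAP that is best known for its part in Imd immune signalling, and Xrp1 is a bZIP transcription factor induced by DNA damage and by defects of ribosomal proteins.

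The reads assigned to genes numbered 30967554 in the shallowest library and 66828787 in the deepest. Levels are given as CPM, reads per 1000000 reads in genes, corrected with the TMM factors of edgeR, and 1 CPM stood for 30.1 and 68.6 reads in them. Counts of Ubx went with the labels: 8 to 89 reads per GFP library, 69408 to 102681 per Ubx-WT library and 51719 to 145254 per Ubx-N51A library. Scaled, Ubx stood at 0.204 to 1.74 CPM with GFP, 1384 to 1709 with Ubx-WT and 1721 to 2275 with Ubx-N51A. All Ubx-N51A libraries thus lay above all Ubx-WT libraries in Ubx, and the part of this difference in the results was not tested. The 9 haemocyte markers examined summed to 1034 to 1152 CPM with GFP, 1073 to 1122 with Ubx-WT and 1100 to 1123 with Ubx-N51A. In that order of groups, most of the sum came from Pxn (466, 461 and 486 CPM), crq (258, 275 and 272) and srp (232, 225 and 228). Hml (7.38, 8.65 and 8.53 CPM), eater (1.92, 1.35 and 1.30) and He (0.742, 0.487 and 0.578) were low. NimC1 was nearly absent at 2, 13 and 5 reads per group. Of the 8 tested, Col4a1 was called, lower in both Ubx groups than with GFP, where 7.83% (Ubx-WT) and 4.71% (Ubx-N51A) of all genes were lower. Of the 3 neuronal markers, elav was present at 38.1, 45.4 and 43.1 CPM. The others were low, nSyb at 0.413, 0.496 and 0.466 CPM and brp at 0.679, 0.778 and 0.608. None of them was called in any comparison. The part of these markers in the results was not tested. Genes of the mitochondrial genome took 1.92% to 3.43% of the reads in the GFP group, 2.77% to 4.91% in the Ubx-WT group and 4.11% to 5.87% in the Ubx-N51A group.

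In the control cells the IAP genes and Drice were well expressed, while hid and skl were low. Per kilobase of summed exon length, the scale on which genes can be compared, Xrp1 stood first in the GFP libraries at 149 ± 7.71 CPM per kb (mean ± SD, n = 3), above 94.8% of the 9018 tested genes with a known length. Diap1 followed at 100.2 ± 0.910 CPM per kb, and Diap2 at 56.2 ± 0.370 could not be separated from Drice at 53.4 ± 3.03, since their libraries overlapped. Dronc stood at 20.6 ± 0.553, rpr at 13.9 ± 1.12, Dcp-1 at 9.64 ± 0.623 and Dark at 8.43 ± 0.520 CPM per kb. The antagonist genes spread widely: hid had 1.01 ± 0.218 CPM per kb and skl 0.0470 ± 0.0495. The order of the 10 genes was the same in all 3 groups. With Ubx-WT the neighbours that overlapped were Dcp-1 and Dark, and with Ubx-N51A no neighbours overlapped.

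**Figure D1:**
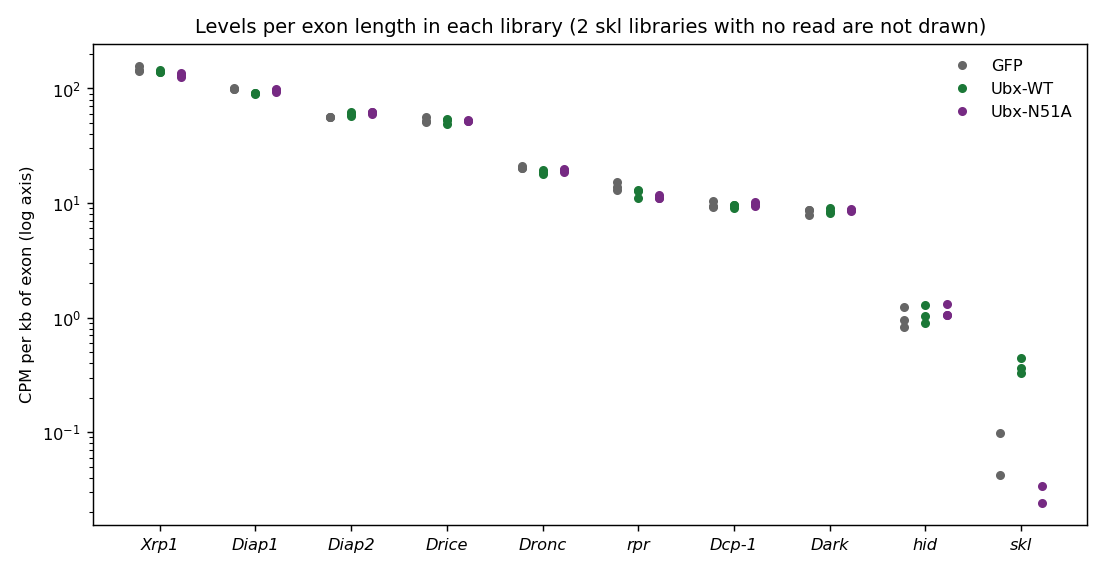
Levels of the 10 genes per kilobase of summed exon length (CPM per kb, logarithmic axis) in each library of the GFP, Ubx-WT and Ubx-N51A groups, with 1 point per library. For skl, GFP replicate 2 and Ubx-N51A replicate 2 had no read and are not drawn. The genes keep the same order in all groups, and skl, the lowest, is the one whose Ubx-WT points lie far above those of the other groups.

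Of the antagonists, skl rose with Ubx-WT and rpr fell with Ubx-N51A. In these bulk samples fewer cells with a transcript and less of it per cell cannot be told apart. The gene (FBgn0036786; chromosome 3L, 18438561 to 18439942, minus strand, 1 exon block, BDGP6.54) had 6, 0 and 3 reads under GFP, 21, 31 and 31 under Ubx-WT, and 1, 0 and 3 under Ubx-N51A. Every Ubx-WT library lay above every other library, and the GFP and Ubx-N51A libraries overlapped. The mean level was 0.523 ± 0.0857 CPM with Ubx-WT, against 0.0649 ± 0.0684 with GFP and 0.0268 ± 0.0242 with Ubx-N51A (SD, n = 3). The log2 fold change of Ubx-WT against GFP was 2.91 (SE 0.503; edgeR quasi-likelihood test, Benjamini-Hochberg adjusted p = 0.00159). That of Ubx-N51A against Ubx-WT was -3.98 (SE 0.599; edgeR adjusted p = 0.00119). From the summed reads, 83 with Ubx-WT and 9 with GFP, the scaled ratio was 7.72 with an exact 95% binomial interval of 3.88 to 17.5. Against the 4 reads with Ubx-N51A it was 16.9, with an interval of 6.37 to 63.6. Such intervals cover counting error only. Between Ubx-N51A and GFP the log2 difference was -1.07, which did not pass the test (edgeR adjusted p = 0.534), with a 95% interval from -3.13 to 0.98. Without GFP replicate 1 the log2 fold change of Ubx-WT against GFP was 3.87, and without Ubx-N51A replicate 3 that between the Ubx proteins was -4.88. The gene entered the test only through the Ubx-WT libraries, where it was high, so a difference was built into its being tested. Even there it stayed the lowest of the 10 genes, at 0.379 ± 0.0620 CPM per kb.

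The other antagonist genes lie in the same stretch of chromosome 3L, and neither rpr nor hid was called with Ubx-WT. In the annotation the order along the chromosome is hid (18167745 to 18185641), grim (18302719 to 18304417), rpr (18397535 to 18398435) and skl, all on the minus strand. The rpr gene had 542, 459 and 701 reads under GFP, 421, 589 and 782 under Ubx-WT, and 318, 368 and 642 under Ubx-N51A. Scaled, these were 12.3, 11.7 and 13.7 CPM under GFP, 10.01, 11.7 and 11.4 under Ubx-WT, and 10.6, 9.89 and 10.1 under Ubx-N51A. All Ubx-N51A libraries lay below all GFP libraries, and the Ubx-WT libraries overlapped with both. With Ubx-N51A rpr fell by 0.31 on the log2 scale (SE 0.0806; edgeR adjusted p = 0.0333), from 12.6 ± 1.01 to 10.2 ± 0.36 CPM. With Ubx-WT its log2 difference from GFP was -0.18, with a 95% interval from -0.35 to -0.01, and did not pass after adjustment (edgeR adjusted p = 0.132).

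The hid gene was low and varied among replicates, at 3.30 to 5.01 CPM with GFP, 3.61 to 5.21 with Ubx-WT and 4.23 to 5.32 with Ubx-N51A. The ranges overlapped throughout. Its log2 difference from GFP was 0.09 with Ubx-WT (95% interval -0.27 to 0.45) and 0.17 with Ubx-N51A (-0.20 to 0.53). The fourth antagonist gene, grim, which is not among the 10, was counted at 0 in all 9 libraries, as were 2 noncoding genes annotated over it. Reads in parts shared by overlapping genes can be set aside as ambiguous in such counting, so the 0 covers only reads assigned to 1 gene. Of the other genes annotated between hid and skl, lncRNA:CR45936 alone was tested, with 35, 61 and 41 reads per group, and it did not pass in any comparison.

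**Figure D2:**
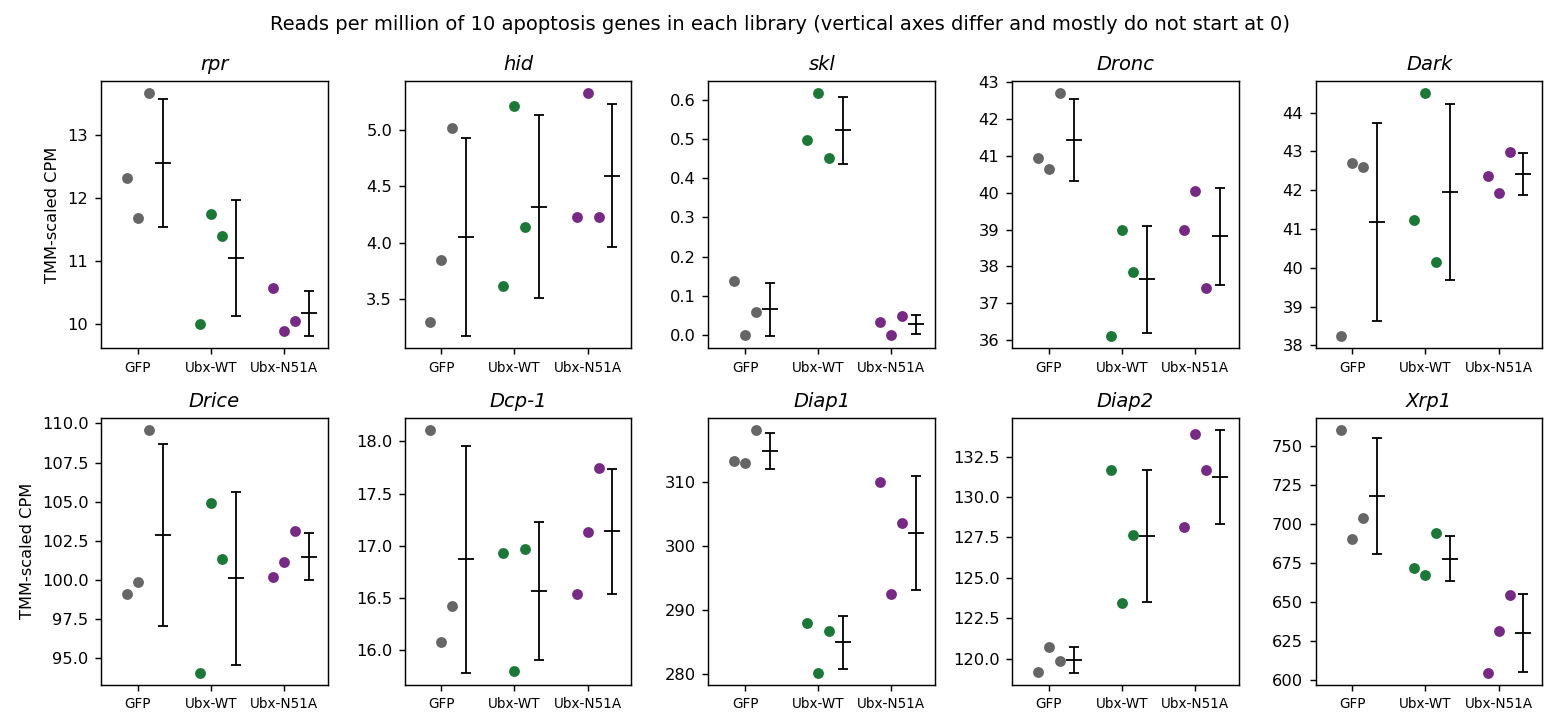
TMM-scaled levels (CPM) of each gene in each library, with 1 panel per gene, 1 point per library, and the mean and SD (n = 3) to the right of each group; vertical axes differ and mostly do not start at 0. The skl points of Ubx-WT stand above all others, the Diap1 points of Ubx-WT and the rpr and Xrp1 points of Ubx-N51A lie below those of GFP, and the Diap2 points of both Ubx groups lie above those of GFP.

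Of the IAP genes, Diap1 fell with Ubx-WT and Diap2 rose with Ubx-N51A, each by a small amount. Diap1 (FBgn0260635; 3L, 16038410 to 16051034, minus strand) stood at 313, 313 and 318 CPM with GFP, at 288, 280 and 287 with Ubx-WT, and at 310.0, 293 and 304 with Ubx-N51A. The GFP libraries lay above all Ubx libraries, and the Ubx-WT libraries lay below all Ubx-N51A libraries. With Ubx-WT Diap1 fell by 0.14 on the log2 scale (SE 0.0366; edgeR adjusted p = 0.0168), from 315 ± 2.86 to 285 ± 4.15 CPM. Its log2 difference between Ubx-N51A and GFP was -0.06, with a 95% interval from -0.14 to 0.02, and between Ubx-N51A and Ubx-WT it was 0.08, from 0.00 to 0.16. Neither passed the test after adjustment (edgeR adjusted p = 0.355 and 0.262).

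Diap2 (FBgn0015247; 2R, 15932170 to 15934825, minus strand) stood at 119, 121 and 120 CPM with GFP, at 132, 123 and 128 with Ubx-WT, and at 128, 134 and 132 with Ubx-N51A. Both Ubx groups lay above all GFP libraries and overlapped with each other. With Ubx-N51A Diap2 rose by 0.13 on the log2 scale (SE 0.0366; edgeR adjusted p = 0.0466), from 119.9 ± 0.789 to 131 ± 2.91 CPM. With Ubx-WT the log2 difference was 0.09, with a 95% interval from 0.01 to 0.17, and did not pass after adjustment (edgeR adjusted p = 0.116). Within a library the ratio of Diap1 to Diap2, both per kilobase of exon, does not depend on how libraries are scaled. It was 1.78 ± 0.0212 with GFP, 1.52 ± 0.0288 with Ubx-WT and 1.56 ± 0.0799 with Ubx-N51A (SD, n = 3), and every GFP library was above every Ubx library. This ratio was formed after the values were seen and is given without a test. The ratio of Diap1 to the sum of rpr, hid and skl was 6.71 ± 0.510 with GFP, 6.65 ± 0.699 with Ubx-WT and 7.71 ± 0.164 with Ubx-N51A, on the same scale per kilobase.

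None of the 4 genes of the caspase cascade passed the test in any comparison. Over all genes 16.6% passed with Ubx-WT against GFP, 8.09% with Ubx-N51A against GFP and 5.14% between the Ubx proteins. Dronc (FBgn0026404; 3L, 9968479 to 9971002) stood at 40.9, 40.6 and 42.7 CPM with GFP, at 36.1, 39.0 and 37.8 with Ubx-WT, and at 39.0, 40.03 and 37.4 with Ubx-N51A. All libraries of both Ubx groups lay below all GFP libraries, and the Ubx groups overlapped. Its log2 difference from GFP was -0.14 with Ubx-WT (95% interval -0.24 to -0.04; edgeR adjusted p = 0.0668) and -0.10 with Ubx-N51A (-0.20 to 0.01; 0.249), and neither passed.

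Drice (FBgn0019972; 3R, 29799658 to 29801584), the more abundant effector caspase, stood at 94.1 to 109.6 CPM over the 9 libraries. Its group means were 103 ± 5.83 with GFP, 100.1 ± 5.51 with Ubx-WT and 101 ± 1.498 with Ubx-N51A. The range of these means was smaller than the range of the replicates within each group. Dcp-1 (FBgn0010501; 2R, 23551313 to 23553547) had group means of 16.9 ± 1.09, 16.6 ± 0.662 and 17.1 ± 0.603 CPM, and Dark (FBgn0263864; 2R, 17020027 to 17026703) of 41.2 ± 2.54, 42.0 ± 2.27 and 42.4 ± 0.531 CPM, in the same order. None of these 3 genes passed the edgeR test in any comparison at an unadjusted p under 0.05 or after adjustment, and their groups overlapped throughout. The 95% intervals of their log2 differences from GFP reached from -0.16 to 0.15 with Ubx-WT and from -0.13 to 0.16 with Ubx-N51A. Per kilobase of exon, Drice was 5.56 ± 0.550 times Dcp-1 with GFP, 5.50 ± 0.495 times with Ubx-WT and 5.38 ± 0.113 times with Ubx-N51A.

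Neighbouring annotation bears on how these counts read, because the strand option of the counting is not given. An antisense gene, asRNA:CR44390, lies over 56.9% of the exon length of Dark and had at most 4 reads in a library. The gene pita, on the strand opposite to Dcp-1, shares 13.7% of the exon length of Dcp-1, and asRNA:CR45889 shares 11% of that of Diap1. None of pita, asRNA:CR45889 and bug, which shares 1 base of exon with Diap2, passed the test in any comparison. The other 6 genes had no overlapping gene in this annotation.

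Xrp1 (FBgn0261113; 3R, 18914968 to 18926989, plus strand) was the most abundant of the 10. It stood at 760, 690.0 and 704 CPM with GFP, at 672, 667 and 694 with Ubx-WT, and at 605, 631 and 655 with Ubx-N51A. All Ubx-N51A libraries lay below all libraries of the other groups, and the Ubx-WT and GFP libraries overlapped. With Ubx-N51A Xrp1 fell by 0.19 on the log2 scale (SE 0.0487; edgeR adjusted p = 0.0325), from 718 ± 37.2 to 630.2 ± 25.0 CPM. With Ubx-WT the log2 difference from GFP was -0.08 (95% interval -0.19 to 0.02; edgeR adjusted p = 0.276), and between Ubx-N51A and Ubx-WT it was -0.10 (-0.21 to 0.00; 0.295). Neither passed.

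**Figure D3:**
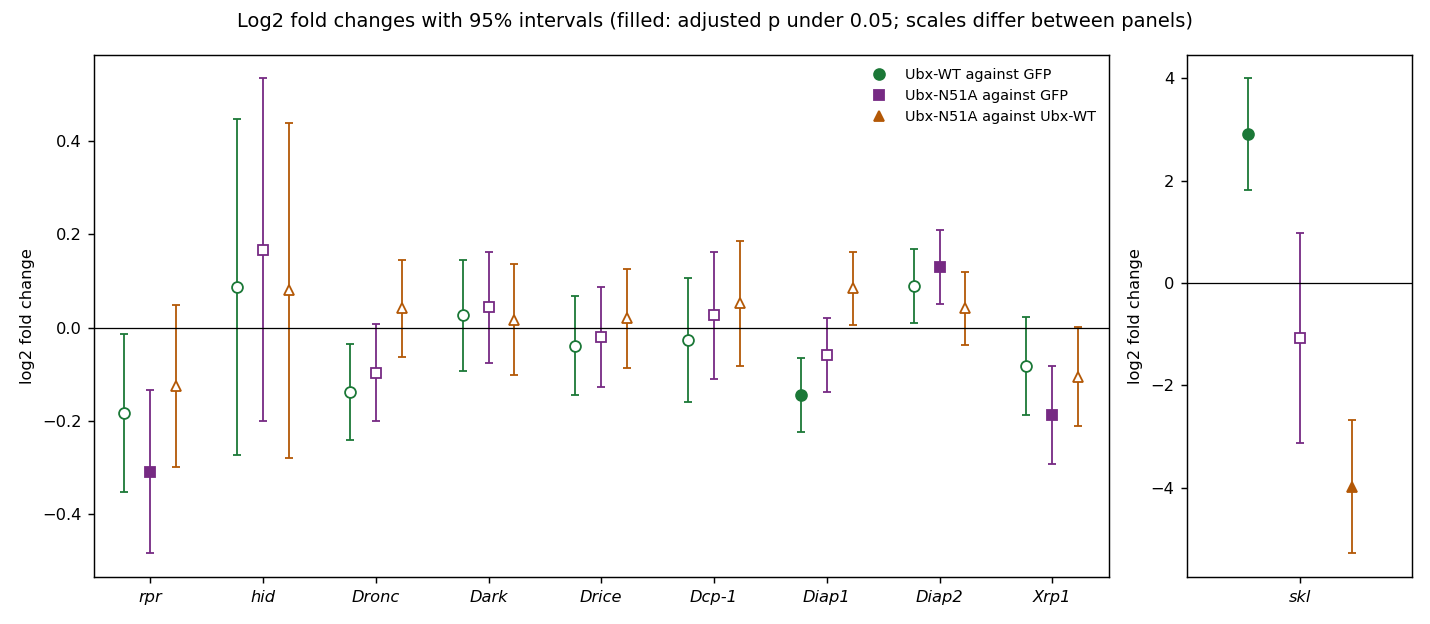
Log2 fold changes with 95% intervals of the 10 genes in the 3 comparisons, from 1 edgeR fit over 9 libraries; filled symbols have an adjusted p under 0.05, and skl has its own axis. The 9 genes other than skl lie within 0.31 of no change in every comparison.

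Counted over the whole list, 1 gene rose (skl) and 1 fell (Diap1) of 10 with Ubx-WT against GFP, where 16.6% of all 9207 tested genes were called, 8.72% higher and 7.83% lower. With Ubx-N51A against GFP 1 rose (Diap2) and 2 fell (rpr and Xrp1), where 8.09% of all genes were called, 3.38% higher and 4.71% lower. Of the 10, skl alone was called in the direct comparison of the Ubx proteins, lower with Ubx-N51A, where 5.14% of all genes were called, 1.23% higher and 3.91% lower. Leaving aside skl, which had to differ to be tested, the counts were 1, 3 and 0 of 9. For the last, edgeR gave 1 gene at an unadjusted p under 0.05 (Diap1) and DESeq2 called 0. The Ubx-WT and GFP groups did not overlap for 4 of 10 genes, 2 above and 2 below, and for 35.4% of all genes, 17.6% above and 17.8% below. For Ubx-N51A and GFP this was so for 5 of 10, 1 above and 4 below, and for 29.4% of all genes, 14.4% above and 15% below. For Ubx-N51A and Ubx-WT it was so for 3 of 10, 1 above and 2 below, and for 22.8% of all genes, 10.9% above and 11.9% below. Leaving aside skl here too, the groups did not overlap for 3, 5 and 2 of 9 genes in the 3 comparisons. The median size of the log2 difference over the 9 genes was 0.09, 0.10 and 0.05 in the 3 comparisons, against 0.10, 0.09 and 0.07 over all genes. The comparisons of both Ubx proteins with GFP share the GFP libraries.

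The calls of Diap1, rpr, Diap2 and Xrp1 were each lost without any 1 of several libraries. That of skl was kept under the 16 alternatives, but the gene was tested because it was high with Ubx-WT, so this is no measure of its stability beside the others. The fall of Diap1 with Ubx-WT kept its size without any 1 library, at -0.15 to -0.13, but its adjusted p was 0.0506 to 0.0595 without any of the 3 GFP libraries, Ubx-WT replicate 2 or Ubx-WT replicate 3. With library totals alone as scaling it was -0.09 (adjusted p = 0.104), and in that fit Diap2 was instead called higher with Ubx-WT (0.14, adjusted p = 0.0246). With Ubx-N51A the call of rpr ended without GFP replicate 1 or 3, Ubx-WT replicate 3 or any Ubx-N51A library (adjusted p = 0.0538 to 0.131). That of Xrp1 ended without any GFP library, Ubx-WT replicate 3 or Ubx-N51A replicate 1 or 2 (0.0558 to 0.138). That of Diap2 ended without any GFP library, Ubx-WT replicate 3 or Ubx-N51A replicate 2 or 3 (0.0838 to 0.149). The Diap2 call also ended with RLE factors (adjusted p = 0.0501), library totals alone (0.0604), no filter on low counts (0.123) and a fit of the 2 groups alone (0.0565), while its log2 difference stayed at 0.12 to 0.13 in these fits. The share of mitochondrial reads was higher in all Ubx-N51A than in all GFP libraries. With those genes left out the log2 difference of Diap2 was 0.13 (adjusted p = 0.0519), that of rpr -0.31 and that of Xrp1 -0.19. That fit moved the median gene by -0.003, and the part of the mitochondrial share in these results was not tested.

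Around these 10 genes, 57 further genes of the pathway were listed in 7 groups, of which 50 were tested. With Ubx-WT against GFP 4 of the 50 rose and 9 fell, with Ubx-N51A 3 rose and 4 fell, and between the Ubx proteins 1 was higher with Ubx-N51A. The 9 and the 4 that fell include Ilp8, which passed the filter only through the GFP libraries, where it was high. Over all tested genes 8.72% rose and 7.83% fell with Ubx-WT, 3.38% rose and 4.71% fell with Ubx-N51A, and 1.23% were higher with Ubx-N51A than with Ubx-WT. The median log2 difference over the 50 was -0.02, -0.02 and 0.00, against 0.00, 0.01 and 0.01 over all genes.

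None of the other caspases and adaptors passed the test. Of the 5 listed, Strica, a caspase with a serine and threonine rich prodomain, was high at 234 CPM with GFP, 221 with Ubx-WT and 229 with Ubx-N51A. Dredd, the caspase of the Imd pathway, stood at 24.7, 25.2 and 24.3 CPM, and Decay at 1.24, 1.17 and 1.43. Damm stayed below the expression filter. The count was 0 of 4 tested in each comparison with edgeR, with DESeq2 and at an unadjusted edgeR p under 0.05, and the lowest adjusted p was 0.169 (Strica with Ubx-WT). Over all genes edgeR called 16.6% with Ubx-WT, 8.09% with Ubx-N51A and 5.14% between the Ubx proteins, so 0 of 4 says little about these genes.

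Among the other regulators of IAPs, Det, which encodes the survivin relative Deterin, rose with Ubx-N51A by 0.26 on the log2 scale (edgeR adjusted p = 0.0166), to 31.3 CPM from 26.1. It was the 1 call among 8 tested genes (8.09% of all genes were called), and 0 of 8 were called with Ubx-WT or between the Ubx proteins by edgeR or DESeq2, with 0 and 3 at an unadjusted edgeR p under 0.05. Over all genes edgeR called 16.6% and 5.14% in those comparisons. Bruce, a large ubiquitin-conjugating inhibitor, stood at 502, 521 and 494 CPM. Of the Bcl-2 proteins and mitochondrial genes, AIF, a mitochondrial flavoprotein, fell with Ubx-WT (-0.14, edgeR adjusted p = 0.0202) and with Ubx-N51A (-0.15, adjusted p = 0.0229), 1 of 5 tested in each. Over all genes 7.83% and 4.71% fell. The Bcl-2 family gene Debcl stood at 86.2, 81.8 and 82.98 CPM and did not pass, and Buffy was below the filter.

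Of 9 genes of DNA damage and p53, p53 itself fell with Ubx-WT (-0.30, edgeR adjusted p = 0.00976) and tefu, the fly ATM kinase gene, rose (0.21, adjusted p = 0.00757). Over all genes 7.83% fell and 8.72% rose with Ubx-WT, and 3.38% rose with Ubx-N51A. With Ubx-N51A lok, the checkpoint kinase gene upstream of p53, rose (0.14, edgeR adjusted p = 0.0488), and this call ended without any 1 of the 9 libraries. With Ubx-N51A the log2 difference of tefu from GFP was 0.08 (edgeR adjusted p = 0.314) and that of p53 -0.24 (0.0577), and neither passed. The p53 gene stood at 20.2 CPM with GFP, 16.4 with Ubx-WT and 17.2 with Ubx-N51A. Its call with Ubx-WT ended without Ubx-WT replicate 3 (adjusted p = 0.0525).

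The largest changes among the listed genes were in stress signals and in the TNF branch. The TNF receptor gene wgn rose from 38.7 CPM with GFP to 55.2 with Ubx-WT (0.51, edgeR adjusted p = 0.000219) and 54.7 with Ubx-N51A (0.50, adjusted p = 0.000778). The ligand gene egr rose with Ubx-WT by 0.16 (edgeR adjusted p = 0.0407), while kay (-0.18) and Jra (-0.15), which encode the Fos and Jun proteins, fell. With Ubx-N51A the log2 differences of egr, kay and Jra were 0.08, -0.15 and -0.10 (edgeR adjusted p = 0.366, 0.0571 and 0.162), and none passed. In this list 2 of 9 tested genes rose and 2 fell with Ubx-WT (8.72% and 7.83% of all genes), and 1 rose with Ubx-N51A (3.38% of all genes). The JNK feedback phosphatase gene puc stood at 117, 114 and 114.6 CPM and did not pass.

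In the list of Xrp1 partners and stress signalling 4 of 9 genes fell with Ubx-WT (7.83% of all genes) and 3 with Ubx-N51A (4.71% of all genes). Both counts include Ilp8, which had to differ to be tested, so they overstate the falls beside those shares. The cytokine gene upd3 fell from 8.60 CPM to 4.02 with Ubx-WT (-1.11, edgeR adjusted p = 1.98e-05) and 3.71 with Ubx-N51A (-1.20, adjusted p = 3.81e-05). Gadd45, a stress-induced activator of MAP kinase signalling, fell from 22.3 to 16.9 CPM in both (-0.40, edgeR adjusted p = 0.00104 and 0.00291). Ilp8, a relaxin-like peptide released by damaged discs, had 68 reads over the GFP libraries, 20 with Ubx-WT and 6 with Ubx-N51A, and was called lower in both (edgeR adjusted p = 0.00284 and 0.00125). It passed the filter only through the GFP libraries, where it was high, so a difference was built into its being tested, and DESeq2 gave no adjusted p for it with Ubx-N51A. GstE6, a glutathione S-transferase gene, fell with Ubx-WT (-0.23, edgeR adjusted p = 0.00195) and was higher with Ubx-N51A than with Ubx-WT (0.16, adjusted p = 0.0480), a call that ended without any 1 library. Irbp18, the bZIP partner of Xrp1, stood at 29.2, 33.4 and 33.6 CPM, with log2 differences of 0.20 that did not pass (edgeR adjusted p = 0.0676 and 0.0975). Among transcription regulators known for control of death genes, EcR, the ecdysone receptor, rose by 0.19 with Ubx-WT (edgeR adjusted p = 0.0361) and E2f1 fell by 0.12 (adjusted p = 0.0458). With Ubx-N51A their log2 differences from GFP were 0.19 and -0.12 (edgeR adjusted p = 0.0663 and 0.0694). Between the Ubx proteins they were -0.0053 and -0.0006. Of 6 tested, 0 were called with Ubx-N51A, where 2 had an unadjusted p under 0.05 and DESeq2 called 2. Over all genes edgeR called 16.6% with Ubx-WT and 8.09% with Ubx-N51A.

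**Figure D4:**
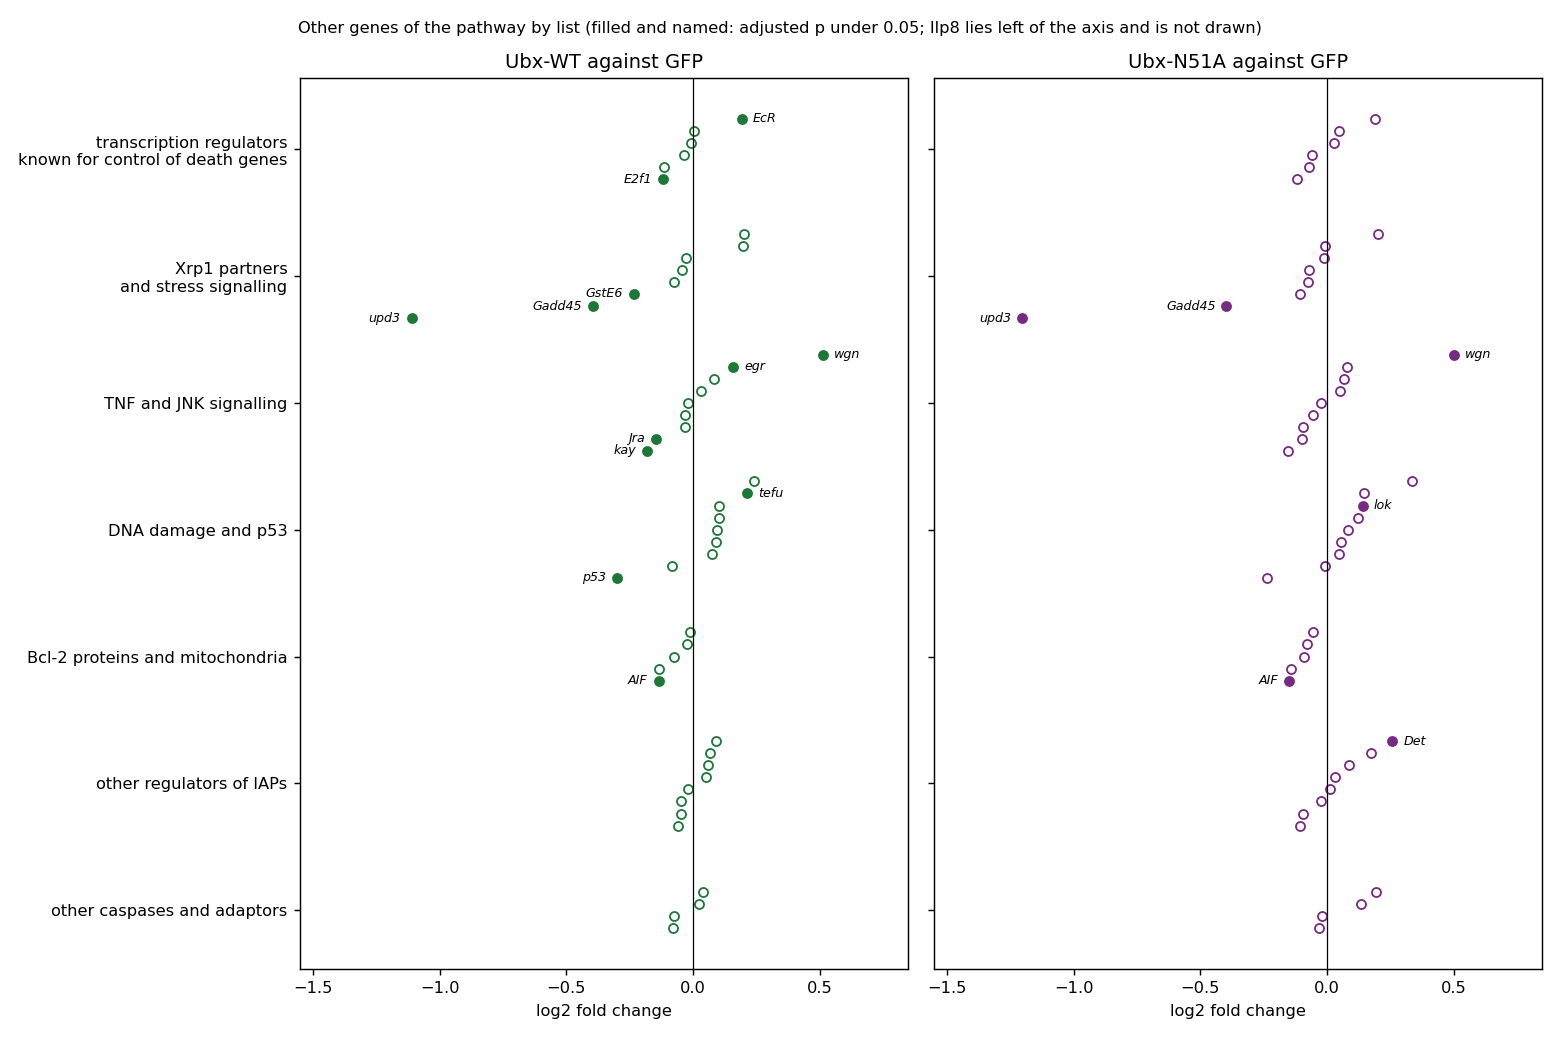
Log2 fold changes of the other tested genes of the pathway, 1 point per gene but Ilp8 in 7 lists, for Ubx-WT (left) and Ubx-N51A (right) against GFP; filled and named points have an adjusted p under 0.05. Ilp8 lies off the axis to the left and is not drawn; upd3 and Gadd45 to the left and wgn to the right stand out in both panels.

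Calls of listed genes that held without each library in turn were those of tefu and GstE6 with Ubx-WT, and of wgn, upd3 and Gadd45 in both comparisons with GFP. Those of Ilp8 were also kept, which is no measure of stability for a gene tested because it was high with GFP. Those of egr, E2f1 and EcR with Ubx-WT ended without at least 5 of the 9 libraries, those of Det and AIF with Ubx-N51A without 4 each, that of Jra without 4, of kay without 3 and of AIF with Ubx-WT without 2. The adjusted p then reached 0.0725 to 0.146. With library totals alone as scaling, the falls of AIF (-0.08, adjusted p = 0.135), kay (-0.13, 0.0591), Jra (-0.09, 0.14) and E2f1 (-0.07, 0.261) with Ubx-WT were not called either, nor was GstE6 between the Ubx proteins (0.10, 0.169).

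Genes whose profile over the 9 libraries was most like that of a called gene were found by the root mean square distance between log2 levels centred on their own mean, among 9206 genes. For skl these were Obp44a (distance 0.23), ldd (0.26) and Act87E (0.30), against 1.08 for the size of the skl profile itself. Obp44a, an odorant binding protein gene, stood at 0.619 CPM with GFP, 2.96 with Ubx-WT and 0.569 with Ubx-N51A. In the same order ldd stood at 0.0357, 0.448 and 0.0416 CPM and Act87E at 0.0778, 0.438 and 0.0520. Like skl, ldd and Act87E were high enough for the filter only with Ubx-WT. With 0.1 CPM added, genes this low in the other groups come out alike, so their likeness to skl was partly built in. Act87E belongs to the actin family, whose near-identical members may share reads. For Diap1 the nearest were kcc, Ostgamma and cm (0.02 each, against 0.06 for its own profile), for Xrp1 Atpalpha, Arts and ari-2 (0.03 to 0.04, against 0.09), and for rpr Mvd, stet and ImpL2 (0.06 to 0.07, against 0.15). These distances describe likeness only.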

How the data were processed

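Poly(A) RNA of 9 S2R+ libraries was sequenced as 75 bp single-end reads from directional libraries, per the labels' protocols. Each deposited file gives unnormalized read counts by FlyBase gene, followed by 5 summary rows that stayed out of library sizes and tests (no feature 1.50% to 2.27%, ambiguous 3.11% to 3.32%, several alignments 3.26% to 5.05% of all counts). The submitters' processing notes name STAR and HTSeq, Trimmomatic 0.36 and FastQC, DESeq2 and DESeq, and the builds dm6 and BDGP6. Settings and the strand option were not given in the sources used here. Symbols matched 17253 of 17559 identifiers. Positions and exon lengths came from Ensembl's BDGP6.54 annotation, the same assembly.

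The counts were fitted with edgeR 4.0.16 in R 4.3.3 (filterByExpr on group, 9207 genes; TMM factors 0.971 to 1.026; glmQLFit and glmQLFTest, group as the only term, all 9 libraries). Calls needed a Benjamini-Hochberg adjusted p under 0.05 over all tested genes. Standard errors were obtained as log2 fold change over √F. The code was tested on simulated counts. Replicates differed by more than sampling noise (chi-square over its degrees of freedom, 6.28 or more). The p-values set each group difference against the spread between replicate libraries, estimated over all 3 groups with information from other genes. Selecting 3 of 4 replicates may narrow that spread.

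The 10 genes and the lists were chosen with earlier results of these data known. Named genes are the 10, up to 4 called genes per list and comparison by adjusted p, and the 3 nearest profiles (log2 CPM with 0.1 added) of called members. Genes named beyond this rule (grim, Strica, Dredd, Decay, Damm, Bruce, Debcl, Buffy, puc, Irbp18, the markers srp, Pxn, crq, Hml, eater, He, NimC1, elav, nSyb and brp, and neighbours of members) were chosen after their values were seen. Of 75 list and marker entries 4 had no row matched and 1 (Jafrac2) was matched by a synonym. Alternatives were DESeq2 1.42.0, other scalings, no filter, 2-group fits, a replicate block and leaving out each library.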

Additional observations from a re-analysis of the deposited data

How the results depend on the processing

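Counts of called genes moved by over 1.5 times only when a library was left out, except the member count with Ubx-N51A against GFP, which went from 3 to 0 with the replicate number as a block. Without 1 library the total ranged from 990 to 1741 (from 1524) with Ubx-WT against GFP, with 990 without Ubx-WT replicate 3 and 1015 without GFP replicate 2. It ranged from 362 to 823 (from 745) with Ubx-N51A against GFP, with 440, 362 and 490 without GFP replicates 1, 2 and 3 and 398 without Ubx-N51A replicate 2. Between the Ubx proteins it ranged from 302 to 474 (from 473), with 302 without Ubx-WT replicate 3. The member counts ranged from 1 to 2, from 0 to 3 and from 1 to 1. Scaling by library totals alone changed the split of calls from 803 higher and 721 lower to 1302 and 376 with Ubx-WT, and from 113 and 360 to 46 and 485 between the Ubx proteins. It moved the median gene by 0.0532 and -0.052. Samples of the same number did not deviate together as a rule (r from -0.34 to 0.56). The r was over 0.1 in 1 of 9 pairs, GFP replicate 1 with Ubx-WT replicate 1. Pairs of unlike number ran from -0.66 to 0.63. With 3 libraries per group this check cannot tell whether the numbers pair samples. Under the block rpr, Diap2 and Xrp1 with Ubx-N51A had adjusted p of 0.0563, 0.0837 and 0.0624, and the totals were 1369, 607 and 401.

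Uncalled genes near 0 changed sign. With library totals alone this was so for Drice (0.0139) and Dcp-1 (0.0268) with Ubx-WT, and for Dronc (-0.0106), Dark (-0.0354), Drice (-0.0327) and Diap2 (-0.011) between the Ubx proteins, each moved by about the shift of the median gene. Without 1 library, with Ubx-WT hid ranged from -0.0628 to 0.283, Dark from -0.0209 to 0.0581, Drice from -0.0741 to 0.0115 and Dcp-1 from -0.0564 to 0.0306. With Ubx-N51A against GFP Dark ranged from -0.0018 to 0.0737, Drice from -0.0404 to 0.0331 and Dcp-1 from -0.0029 to 0.0852. Between the Ubx proteins hid ranged from -0.0344 to 0.23, Dark from -0.0151 to 0.0618 and Drice from -0.0213 to 0.0545. The cause of the changes of sign without a library was not tested. For skl with Ubx-N51A against GFP, DESeq2 gave no adjusted p and the 2-group filter removed the gene. At 0 to 6 reads per library in those groups, the 95% edgeR interval of -3.13 to 0.98 left a fall or a rise of skl undecided. The log2 fold change of 2.91 with Ubx-WT lay above that interval and had its own, from 1.8184 to 3.9982. The gene was tested because it was high with Ubx-WT, and both comparisons share the GFP libraries. Setting the intervals side by side is therefore no test of a difference between the Ubx proteins.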
